A study of Oryza sativa with 3 samples.

Results

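The copper miRNAs of rice, miR397, miR398, miR408 and miR528, were followed in young panicles of ld-1 and ld-2, mutants whose spikelets lack lodicules, and of the japonica wild type. They were taken as every row of the deposited table whose name carries one of these 4 family numbers, which gave 8 of 367 rows, 2 for each family. Small RNA from young panicles was sequenced as 1 library per genotype on an Illumina MiSeq instrument. By the title of the series, the lodiculeless trait is a miR172b mutation that controls cleistogamy, in which the floret stays closed. The sources used here do not describe the ld-1 and ld-2 alleles, the number of plants per library or which samples grew in a greenhouse and which in the field. The libraries held 140807 miRNA reads in ld-1, 66642 in ld-2 and 116818 in wild type. The mature miR172b sequence had 2 reads in ld-1, 1 in ld-2 and 298 in wild type.

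A plant miRNA is cut from a hairpin precursor as a duplex, and 1 strand is usually kept in an Argonaute protein while the other is mostly lost. The copper miRNAs are grouped by their targets, many of which are mRNAs of copper-containing proteins. In Arabidopsis several of them accumulate when copper is scarce under the transcription factor SPL7, and this is understood to spare copper for essential proteins such as plastocyanin. miR528 is found in monocots and is known for targets such as an ascorbate oxidase, miR408 targets plantacyanins and laccases, miR398 targets copper/zinc superoxide dismutases, and miR397 targets laccases, which take part in lignin formation.

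The 8 sequences are shown because the ratios below compare strands and near-identical copies that the names alone do not tell apart. They are written 5′ to 3′ as in the deposited table, with T for U, and the capitals mark bases 2 to 8, called the seed here. Within miR528 and miR408 the sequence with more reads is called major here and the other minor, since the table names no strands.
miR528 major: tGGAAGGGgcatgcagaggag
miR528 minor: cCTGTGCTtgcctcttccatt
miR408 major: cTGCACTGcctcttccctggc
miR408 minor: cAGGGATGaggcagagcatgg
miR398b: tGTGTTCTcaggtcgcccctg
miR398a: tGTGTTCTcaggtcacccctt
miR397a: tCATTGAGtgcagcgttgatg
miR397b: tTATTGAGtgcagcgttgatg

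All 8 sequences had 21 bases, a length shared by 58.5% of the 277 rows with a read. Among the 8, 5 began with T and 3 with C. The major and minor rows of miR528 could be laid antiparallel with 16 Watson-Crick pairs and 1 G-T pair, and those of miR408 with 16 Watson-Crick pairs, each at a shift of 2 bases. In both names the best ungapped pairing thus had the geometry of a miRNA duplex with overhanging 3′ ends. The paired rows differed by 17 edits in miR528 and 13 in miR408. The miR398 and miR397 rows are instead copies of 1 strand. From miR398b to miR398a the changes were G15A and G21T, where base 1 is the 5′ end, and the seed was the same. From miR397a to miR397b the change was C2T, which lies in the seed. The sources used here do not say how reads were divided between copies that are 1 or 2 edits apart.

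The miR408 major row and the miR528 minor row shared a run of 10 bases, TGCCTCTTCC, shown here in capitals because it was the longest run shared between rows of different copper families.
miR408 major: ctgcacTGCCTCTTCCctggc
miR528 minor: cctgtgctTGCCTCTTCCatt
The run spans bases 7 to 16 of miR408 major and bases 9 to 18 of miR528 minor. A run of that length or longer was shared by 27 of 66717 pairs of rows with different family numbers, or 0.0405%. The 2 sequences were 8 edits apart.

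miR528 was by far the most abundant of the 4 families, and its major row was among the 10 most abundant rows of each library, at rank 6 in ld-1, 6 in ld-2 and 8 in wild type. The major row, the canonical miR528, had 5446 reads in ld-1, 2839 in ld-2 and 1885 in wild type. After scaling with TMM, a trimmed mean of the log ratios between libraries, this was 43245 RPM (scaled reads, relative to library size) in ld-1, 38967 in ld-2 and 15777.5 in wild type. The 3 exact 95% Poisson intervals did not overlap, at 42104 to 44409 RPM in ld-1, 37547 to 40427 in ld-2 and 15073 to 16506 in wild type.

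The minor row of miR528 had 377 reads in ld-1, 294 in ld-2 and 146 in wild type. Its scaled level was 2994 RPM (2699 to 3312) in ld-1, 4035 (3587 to 4524) in ld-2 and 1222 (1032 to 1437) in wild type, and the intervals again did not overlap. Here ld-2 was the highest library, whereas ld-1 was the highest for the major row. The rank of the minor row among all rows was 26 in ld-1, 20 in ld-2 and 42 in wild type.

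The miR408 rows were lower in level than either miR528 row in every library. The major row, the canonical plantacyanin-targeting strand, had 90 reads in ld-1, 29 in ld-2 and 33 in wild type, or 715 RPM (575 to 878) in ld-1, 398 (267 to 572) in ld-2 and 276 (190 to 388) in wild type. With TMM, the ld-1 interval lay above those of ld-2, by a narrow margin, and wild type, which overlapped each other. As a share of all miRNA reads, the ld-1 interval (0.0514% to 0.0786%) and the ld-2 interval (0.0291% to 0.0625%) overlapped. The minor row had 32 reads in ld-1, 18 in ld-2 and 13 in wild type, or 254 RPM (174 to 359) in ld-1, 247 (146 to 390) in ld-2 and 109 (57.9 to 186) in wild type. Both mutant values lay above the wild type value, with overlapping intervals.

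Of the miR398 rows, miR398b had 21 reads in ld-1, 12 in ld-2 and 5 in wild type. Its level was 167 RPM (103 to 255) in ld-1, 165 (85.1 to 288) in ld-2 and 41.9 (13.6 to 97.7) in wild type. The ld-1 interval lay above that of wild type, and the ld-2 interval overlapped it. The miR398a row had 0 reads in ld-1, 0 in ld-2 and 1 in wild type, and by a one-sided floor of 3 counts a count of 0 allows up to 23.8 RPM in ld-1 and 41.2 RPM in ld-2. The upper end of the 2-sided Poisson interval used for the other levels is higher, at 29.3 RPM in ld-1 and 50.6 in ld-2.

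The miR397 rows, whose family targets laccases, were near the limit of these libraries. miR397a had 3 reads in ld-1, 2 in ld-2 and 2 in wild type, and miR397b had 0 in each, which by the same one-sided floor allows up to 23.8 RPM in ld-1, 41.2 in ld-2 and 25.1 in wild type. In the main analysis no ratio was formed for the single rows miR397a, miR397b and miR398a, which were under the minimum of 30 summed reads. A difference in miR397 was therefore not detectable at this depth. All 8 rows have equal length, but how efficiently each sequence was ligated and amplified is not known, so the order of rows is one of reads in the libraries. By scaled reads the order in every library was miR528 major, miR528 minor, miR408 major, miR408 minor, miR398b. Neighbours in this order were separated by their intervals down to miR408 minor in ld-1 and wild type and down to miR408 major in ld-2, and miR408 minor and miR398b overlapped in all 3 libraries.

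**Figure D1:**
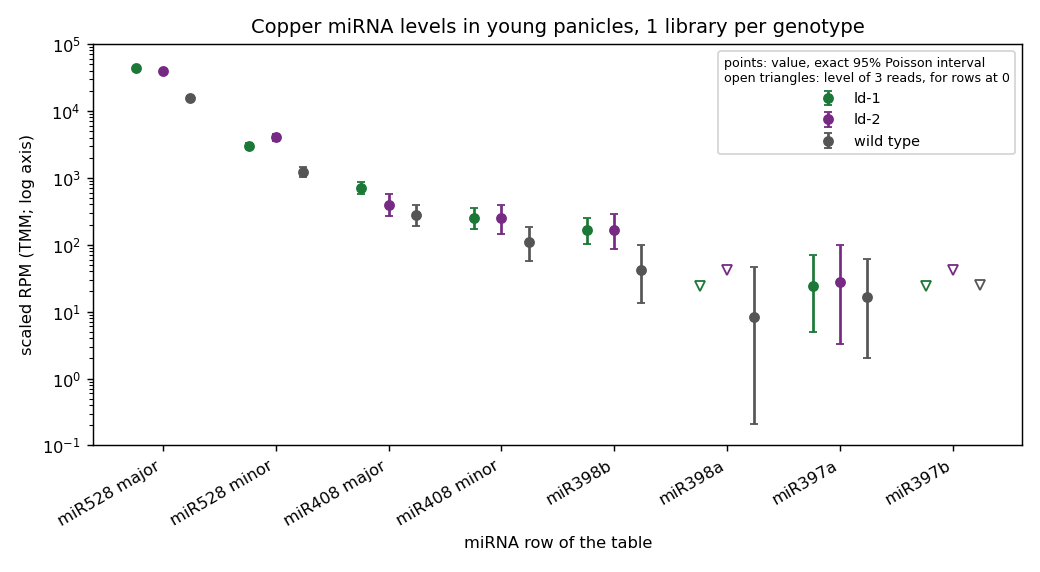
TMM-scaled level (RPM, log axis) of the 8 copper miRNA rows in the ld-1, ld-2 and wild type libraries, with exact 95% Poisson intervals; open triangles mark, for rows with 0 reads, the level of 3 reads. For the miR528 major row the values were 43245 RPM in ld-1, 38967 in ld-2 and 15777.5 in wild type, and miR397a, with 2 or 3 reads, lies under 30 RPM in each library.

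Against wild type, all 5 copper miRNA rows with enough reads were higher in ld-1. A row was called higher or lower when its scaled level differed at least 2-fold, that is by a log2 ratio of 1, and its exact 95% counting interval excluded a ratio of 1. By this rule 5 of 5 copper rows were called higher in ld-1, against 6.42% of all 109 rows tested. Those 6.42% are 7 rows and include the 5 copper rows. The 5 rows belong to 3 families, and the 2 rows of miR528 and of miR408 can pair as a duplex, so they are not independent. The log2 ratio was 1.45 (95% interval 1.38 to 1.53) for miR528 major and 1.29 (1.01 to 1.58) for miR528 minor. It was 1.37 (0.78 to 1.99) for miR408 major and 1.22 (0.25 to 2.28) for miR408 minor. miR398b had the highest log2 ratio of the 109 rows, at 1.99 (0.55 to 3.76), with the widest interval of the 5. With 21 reads in ld-1, 12 in ld-2 and 5 in wild type, miR398b reached the read minimum only through the mutant libraries. Its place among the rows tested and called therefore depended on the reads that made it high. The miR408 minor call ended with a 99% interval (-0.015 to 2.61) and with 5 reads added to each count (0.96), which in each case left 4 of 5 rows called. The median of the 5 rows was 1.37, beside -0.06 for all rows tested. Reads are not independent molecules and there is no second library of any genotype, so these intervals cover counting error only, the variation between plants was not measured, and genotype and library cannot be told apart. In a whole panicle, a change in the number of cells that make a miRNA and a change in its amount per cell cannot be told apart either.

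In ld-2, 4 of 5 copper rows were called higher than in wild type, against 21.1% of the 109 rows, the copper rows included. The log2 ratio was 1.30 (1.22 to 1.39) for miR528 major and 1.72 (1.43 to 2.02) for miR528 minor. It was 1.98 (0.37 to 3.83) for miR398b, which reached the read minimum through the mutant libraries, and 1.18 (0.07 to 2.33) for miR408 minor. The miR408 minor call ended without the 5 most abundant rows in the library sizes (0.98, -0.13 to 2.13), and it and the miR398b call ended with a 99% interval. The miR408 major row was not called, at 0.53 (-0.24 to 1.29). The median of the 5 rows was 1.30, beside 0.03 for all rows tested. Both mutants were set against the same wild type library, so a chance departure of that library would enter both comparisons alike.

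**Figure D2:**
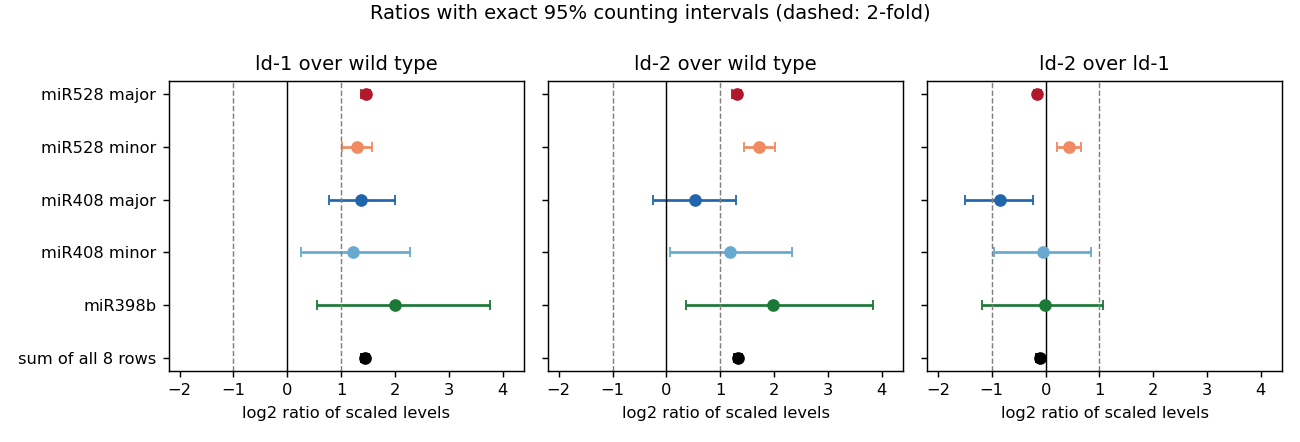
Log2 ratios of the 5 tested copper miRNA rows and of the summed reads of all 8 rows for ld-1 over wild type, ld-2 over wild type and ld-2 over ld-1, with exact 95% counting intervals; dashed lines mark 2-fold. All 5 points lie past 2-fold in ld-1 over wild type, and in ld-2 over wild type miR408 major lies at 0.53, with an interval that includes 0.

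The share of all tested rows called higher differed between the mutants, and in ld-2 it included the miR2118 family. The miR2118 and miR2275 list, 13 rows of triggers of phased small RNAs in developing anthers, had 12 tested rows, of which 12 were called higher in ld-2 over wild type and 0 in ld-1 over wild type. Its summed reads were 2880 in ld-2 and 1208 in ld-1, against 1293 in wild type, a log2 ratio of 1.87 (1.77 to 1.96) in ld-2 and -0.17 (-0.29 to -0.06) in ld-1. The part of this shift in the copper miRNA ratios was not tested. Leaving the miR2118 rows out of the scaling changes only the library scaling, and the miR528 major ratio in ld-2 was then 1.43.

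**Figure D3:**
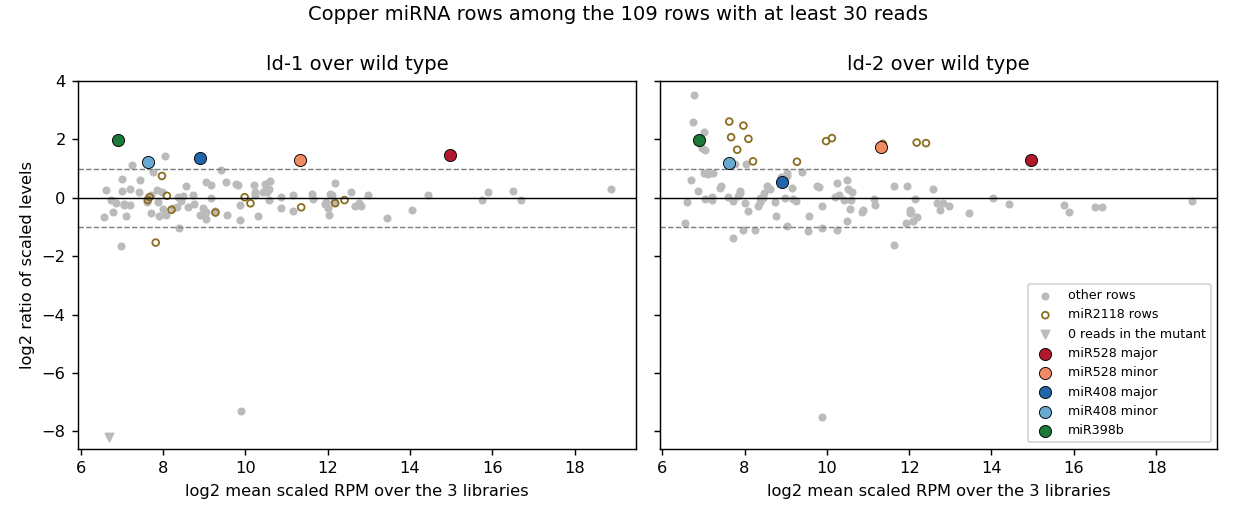
Log2 ratio to wild type against log2 mean scaled RPM for the 109 tested rows, in ld-1 (left) and ld-2 (right). Copper miRNA rows are filled in colour, miR2118 rows are open circles, and a triangle marks a row with 0 reads in the mutant; in ld-1 the 5 copper rows lie between 1.22 and 1.99 while all tested rows have a median of -0.06.

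The copper miRNAs took a larger part of the sequenced miRNA pool in each mutant. Summed over the 8 rows there were 5969 reads in ld-1, 3194 in ld-2 and 2085 in wild type. This was 4.24% of all miRNA reads in ld-1 (exact 95% binomial interval 4.13% to 4.35%), 4.79% in ld-2 (4.63% to 4.96%) and 1.78% in wild type (1.71% to 1.86%). The scaled sum was 2.72-fold higher in ld-1 than in wild type (log2 1.44, 1.37 to 1.51) and 2.51-fold higher in ld-2 (log2 1.33, 1.25 to 1.41). These sums mostly restate miR528, which held 97.6% of the copper reads in ld-1, 98.1% in ld-2 and 97.4% in wild type.

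Without miR528, the other 3 families had 146 reads in ld-1, 61 in ld-2 and 54 in wild type. Their scaled sum was 2.57-fold higher in ld-1 (log2 1.36, 0.90 to 1.84) and 1.85-fold that of wild type in ld-2 (log2 0.89, 0.34 to 1.45), which is under the 2-fold rule. By family, the log2 ratio of summed reads in ld-1 was 1.33 (0.83 to 1.85) for miR408 and 1.73 (0.37 to 3.33) for miR398. In ld-2 it was 0.74 (0.13 to 1.36) for miR408 and 1.71 (0.19 to 3.41) for miR398. The ld-2 sum of miR408 is thus under 2-fold, while its interval excludes a ratio of 1.

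Between the mutants, 0 of 5 copper rows were called, against 24.8% of the 109 rows called in either direction. The log2 ratio of ld-2 over ld-1 was -0.15 (-0.22 to -0.08) for miR528 major, a sign that turned with RPM of all miRNA reads (0.14, 0.07 to 0.21). It was 0.43 (0.21 to 0.65) for miR528 minor and -0.84 (-1.501 to -0.23) for miR408 major. For miR408 minor it was -0.04 (-0.96 to 0.84) and for miR398b -0.02 (-1.17 to 1.07), intervals that leave room for differences of about 2-fold either way, and both signs turned with RPM of all miRNA reads. The miR408 major ratio kept its sign under that scaling, at -0.55 (-1.21 to 0.06), but its interval included a ratio of 1.

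The ratio of rows within a name does not depend on library scaling. For miR528 the minor row made up 6.47% of the reads of the name in ld-1 (exact 95% binomial interval 5.86% to 7.14%), 9.38% in ld-2 (8.39% to 10.5%) and 7.19% in wild type (6.10% to 8.40%). There were 14.4 major reads per minor read in ld-1, 9.66 in ld-2 and 12.9 in wild type. The odds of a minor read were 1.496 times as high in ld-2 as in ld-1 (exact conditional 95% interval 1.27 to 1.76) and 1.34 times those of wild type (1.08 to 1.66), and both intervals also excluded 1 at 99%. For ld-1 over wild type the odds ratio was 0.894 (0.731 to 1.10), with an interval that included 1.

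Among the 9 names of the table with exactly 2 tested rows, the interval of this odds ratio lay above 1 for 11.1% in ld-2 over wild type and for 11.1% in ld-2 over ld-1, which in each case is miR528 itself. For the 7 names other than miR528 and miR408, the odds ratio ran from 0.514 to 1.90 in ld-2 over wild type and from 0.536 to 1.36 in ld-2 over ld-1. The interval lay below 1 for 2 of these 7 in ld-2 over wild type and for 1 in ld-2 over ld-1. In ld-1 over wild type, 22.2% of the 9 names had an interval that excluded 1, and miR528 was not among them.

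For miR408 the minor row made up 26.2% of the reads of the name in ld-1 (18.7% to 35.0%), 38.3% in ld-2 (24.5% to 53.6%) and 28.3% in wild type (16.0% to 43.5%). As with miR528, the ld-2 share was the highest, but here the intervals of the 3 libraries overlapped. The odds ratio was 1.74 (0.796 to 3.76) for ld-2 over ld-1, 1.57 (0.606 to 4.15) for ld-2 over wild type and 0.903 (0.401 to 2.11) for ld-1 over wild type, and each interval included 1. For miR398, miR398a took 0 of 21 reads in ld-1, 0 of 12 in ld-2 and 1 of 6 in wild type, and the upper exact limits of 16.1% and 26.5% in the mutants do not separate them from wild type. The miR397 reads, 3 in ld-1, 2 in ld-2 and 2 in wild type, were all miR397a.

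**Figure D4:**
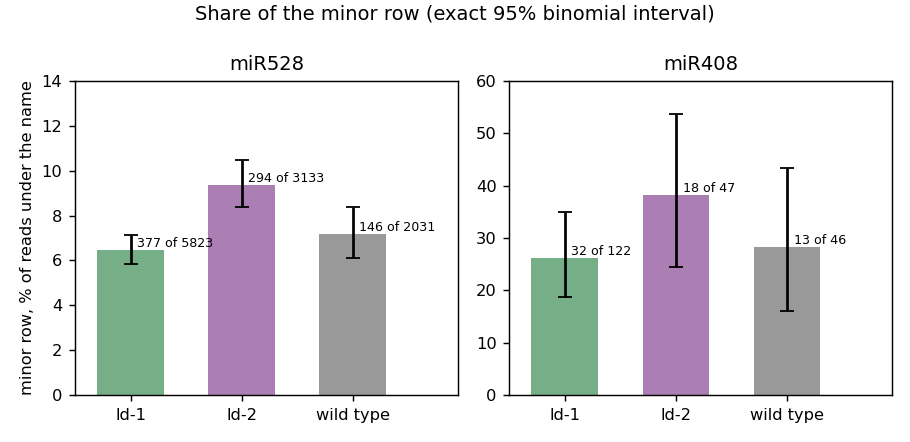
Share of the minor row among the reads of its name (percent, axis from 0) for miR528 (left) and miR408 (right) in ld-1, ld-2 and wild type, with exact 95% binomial intervals and the read counts behind each bar. The miR528 share is 6.47% in ld-1, 9.38% in ld-2 and 7.19% in wild type, and the miR408 intervals of all 3 libraries overlap.

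Ratios between the families are likewise free of scaling. There were 2.10 miR408 reads per 100 miR528 reads in ld-1, 1.5 in ld-2 and 2.26 in wild type. The odds ratio of miR408 to miR528 was 0.925 (0.651 to 1.33) for ld-1 over wild type, 0.662 (0.430 to 1.02) for ld-2 over wild type and 0.716 (0.499 to 1.01) for ld-2 over ld-1, so each interval included 1. For the major rows alone it was 0.944 (0.625 to 1.46) for ld-1 over wild type, 0.584 (0.341 to 0.995) for ld-2 over wild type and 0.618 (0.391 to 0.951) for ld-2 over ld-1. The miR408 major strand was therefore lower relative to miR528 major in ld-2 than in either other library, although both intervals included 1 at 99%. For miR398 relative to miR528 the odds ratio was 1.22 (0.476 to 3.70) for ld-1 over wild type, 1.30 (0.449 to 4.22) for ld-2 over wild type and 1.06 (0.476 to 2.26) for ld-2 over ld-1. At this depth a difference between these 2 families was not detectable.

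The copper ratios were recomputed under 7 ways of scaling the libraries. Over these 7 the log2 ratio of miR528 major ran from 1.26 to 1.49 in ld-1 over wild type and from 1.10 to 1.43 in ld-2 over wild type, and the row was called in all 7 in each. miR528 minor ran from 1.10 to 1.33 in ld-1 and from 1.52 to 1.85 in ld-2 and was called in all 7. miR408 major was called in 7 of 7 in ld-1 (1.18 to 1.40) and in 0 of 7 in ld-2 (0.32 to 0.65).

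**Figure D5:**
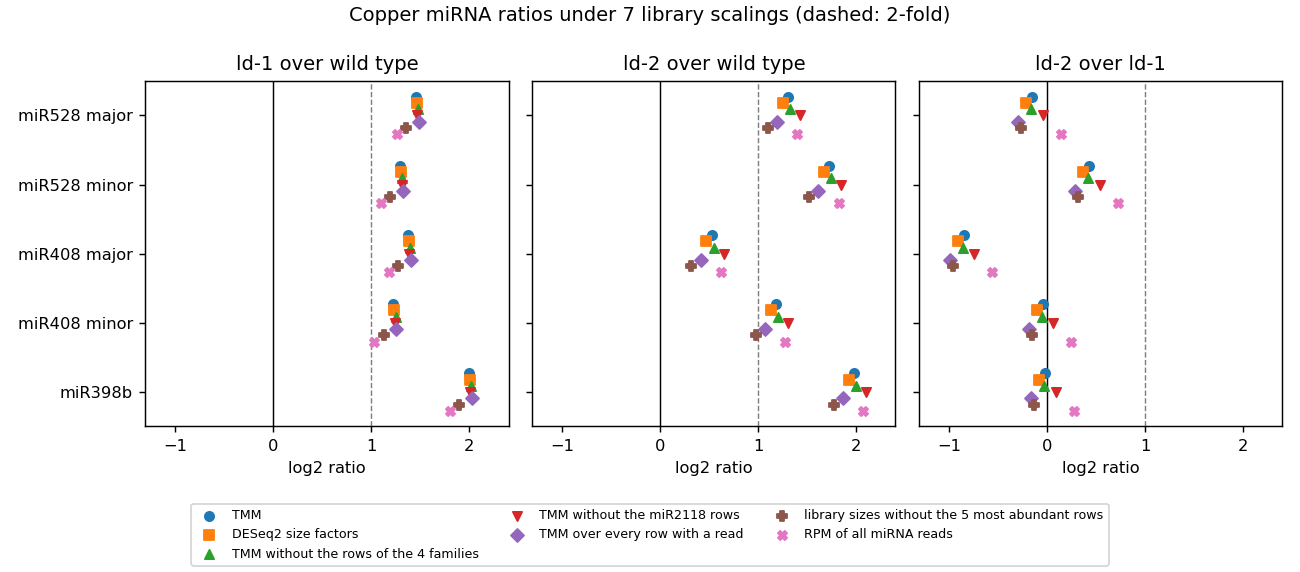
Log2 ratios of the 5 tested copper miRNA rows under 7 library scalings (marker shapes) for the 3 comparisons; the dashed line marks 2-fold. In ld-2 over wild type the miR408 minor row falls on either side of the line (0.98 to 1.31), and in ld-2 over ld-1 the miR528 major row falls on either side of 0 (-0.30 to 0.14).

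Rows outside the 4 families were compared with miR528 major by Euclidean distance between log2 scaled levels, centred on their mean over the 3 libraries. The comparison covered 103 rows with at least 30 summed reads and a read in every library. The 5 nearest were miR164c (distance 0.105), miR2878 (0.342), miR1871 (0.385), miR1863a (0.427) and miR1846d (0.582). miR164c belongs to a family known to target NAC transcription factors of organ boundaries, and it had 46 reads in ld-1, 22 in ld-2 and 16 in wild type. Like most copper rows, miR164c was called higher than wild type in ld-1 (log2 ratio 1.45, 0.60 to 2.37) and in ld-2 (1.17, 0.18 to 2.20). The miR2878 row was called higher in ld-1 only and miR1863a in ld-2 only, while miR1871 and miR1846d were called in neither. Of the copper rows, miR408 minor lay at 0.163, miR528 minor at 0.424, miR398b at 0.504 and miR408 major at 0.604. With 3 libraries and few reads in most of these rows, nearness describes these libraries only.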

How the data were processed

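The authors deposited a table of read counts, as its header states, in which a row is a mature miRNA sequence and a column is a library. The header does not say that the counts are raw, and this was assumed for the counting intervals. The sources used here do not state how reads were trimmed, mapped and counted, nor which annotation was used, and promoters and genome positions were not analysed here. Of the 367 rows, all distinct in sequence, 90 had no read.

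Counts were scaled by TMM (edgeR 4.0.16, R 4.3.3) on the 109 rows with at least 30 summed reads, which gave factors of 0.894 for ld-1, 1.09 for ld-2 and 1.02 for wild type. A single read was then worth 7.94 RPM in ld-1, 13.7 in ld-2 and 8.37 in wild type, so ld-2 was measured least precisely. Ratios carry exact Clopper-Pearson intervals given the scaled library sizes. Ratios of 2 rows within a library carry exact conditional intervals (scipy 1.17.1; numpy 2.4.6, pandas 2.3.3, matplotlib 3.10.9, Python 3.11.15). With 1 library per genotype no p-value was computed. Code was tested on simulated data. The named rows were all rows of the 4 families, miR172b, the sums of the context lists and the 5 rows nearest in pattern. Members, lists and tests were chosen with earlier results of these data known. Alternatives were 6 other scalings (1 of them DESeq2 1.42.0 size factors), other read minimums, thresholds, interval levels and added reads, and rows summed by name. TMM over every row with a read, and the odds ratios of the other names with 2 tested rows, were added after seeing the data.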

Additional observations from a re-analysis of the deposited data

Results flagged for a closer look

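The odds of a minor read within miR528 lay on opposite sides of wild type in the mutants, with an odds ratio to wild type of 0.894 in ld-1 and 1.34 in ld-2. The ld-1 interval included 1, and that of ld-2 over ld-1 (1.27 to 1.76) did not, but the difference between the mutants was not tested against the variation between plants. The same held for miR408, with odds ratios to wild type of 0.903 in ld-1 and 1.57 in ld-2 on 122 reads in ld-1, 47 in ld-2 and 46 in wild type, and both of these intervals included 1. The odds ratio of ld-2 over ld-1, 1.74 (0.796 to 3.76), also had an interval that included 1, and the variation between plants was not measured.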

How the results depend on the processing

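No paired analysis was possible because each genotype had 1 library. Of 120 alternative values of the counts, medians, sums and within-name odds ratios, 104 were classed as unchanged, by a rule that did not always require the same sign. The ld-2 over ld-1 median, -0.04 in the main analysis, was so classed at 0.25 with RPM of all miRNA reads. It was also so classed at 0.065 without miR2118 in the scaling and at 0.10 with 5 reads added. For ld-1 over wild type, 3 of 3 copper rows tested were called higher at a minimum of 100 summed reads (4.17% of all rows tested), 1 of 5 at a log2 threshold of 1.5 (0.917%) and 3 of 3 families when rows were summed by name (6.67%). For ld-2 over wild type, 2 of 3 were called higher at that minimum (11.1%), 2 of 5 at that threshold (15.6%), 2 of 5 with a 99% interval (17.4%) and 2 of 3 families by name (13.3%). Between the mutants, 1 of 5 rows, miR408 major, was called at 1.5-fold, against 32.1% of all rows called either way. The summed ratios of 1.44 in ld-1 and 1.33 in ld-2 fell under a log2 threshold of 1.5 by its construction. The ld-2 median was 1.40 with RPM of all miRNA reads, 1.10 without the 5 most abundant rows, 1.43 without miR2118 in the scaling, 1.19 with TMM over every row with a read and 1.18 with no read minimum.

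Among the recomputed values of the copper rows, their sum and their medians, signs turned only in ld-2 over ld-1. With RPM of all miRNA reads, ld-2 over ld-1 was 0.18 for the sum, 0.14 for miR528 major, 0.25 for miR408 minor and 0.27 for miR398b. Without miR2118 in the scaling it was 0.065 for miR408 minor and 0.088 for miR398b. With 5 reads added it was 0.10 for miR408 minor and 0.18 for miR398b, and with 0.5 reads added it was 0.0071 for miR398b. The cause was not tested. That scaling moved the median over tested rows by -0.19 in ld-1 over wild type, 0.10 in ld-2 over wild type and 0.29 in ld-2 over ld-1. In ld-2 over wild type and ld-2 over ld-1 it moved by -0.21 and -0.11 without the 5 most abundant rows, by 0.12 and 0.11 without miR2118, and by -0.11 and -0.15 with TMM over every row with a read. The negative shifts turned the sign of the median over all tested rows in ld-2 over wild type, which was 0.03 with TMM. The miR408 minor call ended in ld-2 also with TMM over every row with a read (1.07). Depth limits miR397, miR398a and miR398b most.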

Other observations

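The other nutrient-responsive families, miR395 (sulfate), miR399 and miR827 (phosphate), had 11 rows, none of which reached 30 summed reads. Their summed reads were 17 in ld-1, 10 in ld-2 and 5 in wild type, and the log2 ratio to wild type was 1.69 for ld-1 (95% counting interval 0.19 to 3.48) and 1.71 for ld-2 (0.03 to 3.61). miR399 held most of them, with 11 reads in ld-1, 8 in ld-2 and 4 in wild type. Of the copper miRNA rows, miR397a shared its seed with 1 row of another family, listed under miR160f, and the miR528 and miR408 rows shared theirs with 0 other rows.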
